A study of Mus musculus with 12 samples.

Results

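The neutrophil genes followed here in the mouse aorta, on day 3 of a model of aortic dissection, were S100a8, S100a9, Ly6g, Csf3r, Mpo, Elane, Ngp, Camp, Ltf and Lcn2. They were chosen by name, and every array probe that carries such a gene name in the array files was kept, which took 10 of 34796 gene names. They had 12 of the 55675 gene probes analysed, because Mpo and Camp each had 2 probes. The array holds 55681 gene probes, of which 6 lacked a value on some array and were left out. A probe was tested if its signal was well above background on each of the 3 arrays of 1 group or more. For 7 of the 10 genes, 8 probes met this filter, out of the 27801 probes on the array that did. The other 3 genes, Mpo, Ngp and Ltf, did not meet it and are described by their levels alone.

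All mice were male C57BL/6J mice aged 11 to 14 weeks. There were 4 groups of 3 mice, with 1 array per mouse, and the RNA came from a 10 mm segment of aorta above the right renal branch. By its treatment label, the DMSO group received the vehicle dimethylsulfoxide, and the rapamycin group received rapamycin, an inhibitor of the kinase mTOR, at 2 mg/kg/day by intraperitoneal injection in DMSO. The BA+DMSO and BA+rapamycin groups also received the challenge, which was 150 mg/kg/day of β-aminopropionitrile (BAPN), an inhibitor of collagen crosslinking, and 1 µg/kg/min of angiotensin II (AngII) from implanted pumps. By the series' design text, all 12 samples were taken on day 3. The DMSO arrays are titled Pre, which the series' design text gives as its name for the group with vehicle alone. In the paper's staining images, Pre stands for tissue from before the challenge, so the day of the DMSO arrays rests on the design text. The comparisons ask whether the challenge changed these genes and whether rapamycin changed that response.

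Neutrophils are short-lived white blood cells that enter inflamed tissue early. They are filled with granules that are made in order as the cell matures in the bone marrow: azurophil granules carry Mpo and Elane, and specific granules, made later, carry Ltf, Camp, Ngp and Lcn2. Much of the granule RNA is made in marrow precursors and has fallen by the time the cell is in blood, whereas S100a8, S100a9 and Csf3r RNA is kept in the mature cell. Some of these genes are also used elsewhere: S100a8, S100a9 and Lcn2 are switched on in monocytes, macrophages and other cells during inflammation.

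Levels are given as log2 of the processed probe signal minus the log2 of the 75th percentile of all gene probes on the same array, so a level of 0 equals that percentile. A level can be set against the same probe in another group, but not against another probe. The 75th percentile itself was lower in most challenged mice. It ranged from 74.6 to 109 for BA+rapamycin, from 78.1 to 246 for BA+DMSO, from 221 to 280 for DMSO and from 257 to 337 for rapamycin. Between 42.3% and 54.1% of gene probes were well above background on each array, and no spot was saturated. The arrays came from 2 slides. The first held the 3 DMSO arrays and rapamycin 1, and the second held all the others, so DMSO and BA+DMSO lay on different slides, and their difference can be told apart from the slide only through the rapamycin arrays, which lay on both. Markers of the labelled tissue were present: the smooth muscle genes Tagln, Acta2 and Myh11 were well above background on all 12 arrays. In a sample of whole aorta, fewer cells of a type and less RNA per cell cannot be told apart.

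Lcn2, Elane and Ly6g rose with BAPN + AngII challenge given with vehicle, and Lcn2 rose most, 6.02-fold. In all, 3 of the 7 genes tested were called higher at an adjusted p under 0.05 (limma, Benjamini-Hochberg adjustment over all probes tested) and 0 were called lower. Over all probes tested, 20.5% were called in this comparison, 9.65% higher and 10.8% lower. The median log2 difference of the 7 genes was 1.64, against -0.04 over all probes tested. With rapamycin in both groups, Lcn2 and Elane rose with the challenge again, and Csf3r was called as well. This Elane call was lost with array brightness as a covariate (0.71, adjusted p = 0.105). Before scaling, the mean Elane signal was lower in BA+rapamycin than in rapamycin, at 132 against 197. With vehicle it was 182 ± 96.7 (SD, n = 3) in BA+DMSO against 169 ± 20.5 in DMSO, a difference smaller than the spread. The Ly6g call was lost in some fits with a single array left out. The Ly6g and Csf3r probes each share sequence with another probe or more and are described with that sequence. For rapamycin, with or without the challenge, none of the 7 was called, against 0.281% of all probes under challenge and 0.0036% without. With slide as a fixed block none of the vehicle calls held, at 2.44 for Lcn2 (adjusted p = 0.171), 1.16 for Ly6g (adjusted p = 0.671) and 1.02 for Elane (adjusted p = 0.30), when 15 probes of the whole array were called.

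**Figure D1:**
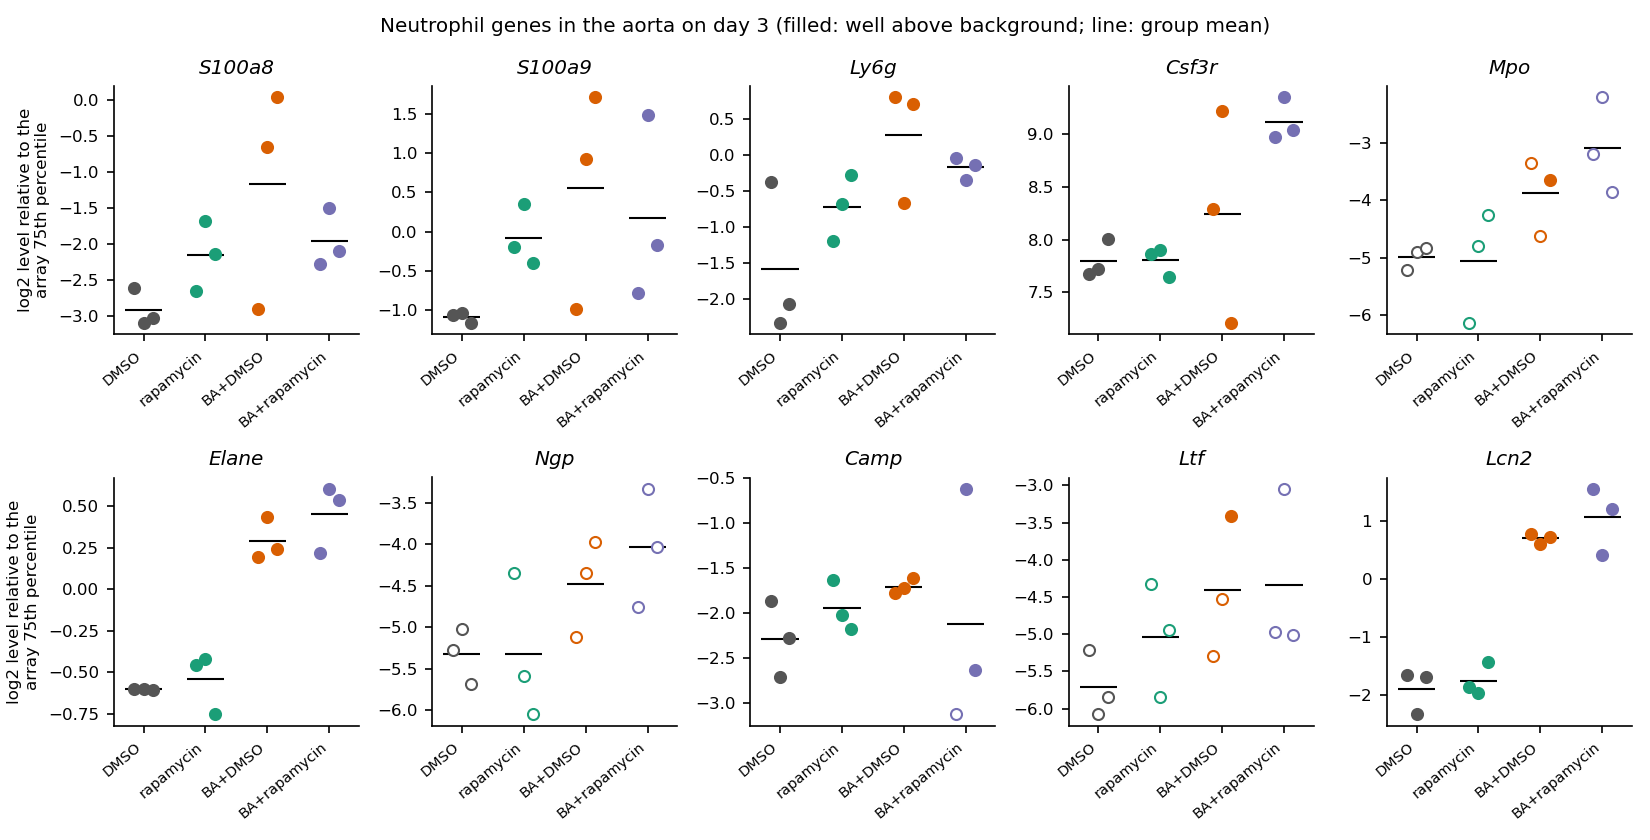
Level of each gene on the 12 arrays, as log2 relative to the 75th percentile of the array, by group. Filled points are well above background, open points are not, lines are group means (n = 3), and each panel has its own axis. The Lcn2 and Elane points of the challenged groups all lie above those of the other groups, a separation whose share over all probes was not counted. The S100a8 and S100a9 points of BA+DMSO spread widely, and the Mpo, Ngp and Ltf points are nearly all open.

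S100a8 and S100a9 encode the partners of calprotectin, a calcium- and zinc-binding protein that fills the cytosol of neutrophils and acts as an alarm signal when released. The probes lie at chr3:90473778-90473837 and at chr3:90496573-90496632 (build mm9), and the genes are neighbours. S100a8 was at -2.61, -3.10 and -3.03 in DMSO, -2.65, -1.68 and -2.14 in rapamycin, -2.91, -0.65 and 0.04 in BA+DMSO, and -2.28, -1.50 and -2.10 in BA+rapamycin. S100a9 was at -1.07, -1.04 and -1.16 in DMSO, -0.19, 0.36 and -0.40 in rapamycin, -0.99, 0.92 and 1.71 in BA+DMSO, and -0.79, 1.48 and -0.17 in BA+rapamycin. The BA+DMSO mice thus differed among themselves for both genes: mouse 1 was at the DMSO level, and mice 2 and 3 were far above it.

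The difference between BA+DMSO and DMSO was 1.74 for S100a8 (SE 0.60, adjusted p = 0.0628) and 1.64 for S100a9 (SE 0.66, adjusted p = 0.101), so neither was called. S100a9 was nevertheless higher on every BA+DMSO array than on any DMSO array, as were Elane, Camp and Lcn2, 4 of the 7 genes in all, and 14.4% of all probes tested. The S100a9 separation was small at its edge, since BA+DMSO mouse 1 was at -0.99 and the highest DMSO mouse at -1.04 for S100a9. For Camp this held for the representative probe alone, since the groups overlapped for its other probe. Without BA+DMSO mouse 1, the differences were 2.61 for S100a8 (adjusted p = 0.00255) and 2.41 for S100a9 (adjusted p = 0.0248), both past the threshold. Without BA+DMSO mouse 3 they fell to 1.13 for S100a8 (adjusted p = 0.132) and 1.06 for S100a9 (adjusted p = 0.222). Each of these values leaves BA+DMSO with 2 arrays.

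Under rapamycin the scaled challenge difference was 0.19 for S100a8 (SE 0.60) and 0.25 for S100a9 (SE 0.66), each within 1 SE of 0. Before scaling, the mean S100a8 signal was 67.5 ± 23.3 (SD, n = 3) in rapamycin and 24.7 ± 1.95 in BA+rapamycin, and 34.7 ± 9.91 in DMSO and 107.1 ± 128 in BA+DMSO. The mean S100a9 signal was 276 ± 63.8 in rapamycin and 123 ± 76.0 in BA+rapamycin, and 120.7 ± 18.9 in DMSO and 340.3 ± 405 in BA+DMSO. Thus the unscaled means of both genes were lower with the challenge under rapamycin, opposite to the scaled sign, and higher with it under vehicle, as after scaling. The BA+DMSO signals were 17.6, 49.8 and 254 for S100a8 and 66.7, 148 and 806 for S100a9. Mouse 3 carried these higher vehicle means, since mice 1 and 2 lay on either side of the DMSO mean for both genes. The difference between both challenge effects was -1.55 for S100a8 (SE 0.85, adjusted p = 0.737) and -1.39 for S100a9 (SE 0.93, adjusted p = 0.737), so a change of the response with rapamycin was not detectable. Rapamycin without challenge gave a S100a9 difference of 1.01 (SE 0.66, adjusted p = 1), with every rapamycin array above every DMSO array, as for 10.8% of all probes tested. By group mean, both genes were ordered DMSO, rapamycin, BA+rapamycin and BA+DMSO from low to high. Only DMSO and rapamycin for S100a9 were separated among neighbours in that order.

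**Figure D2:**
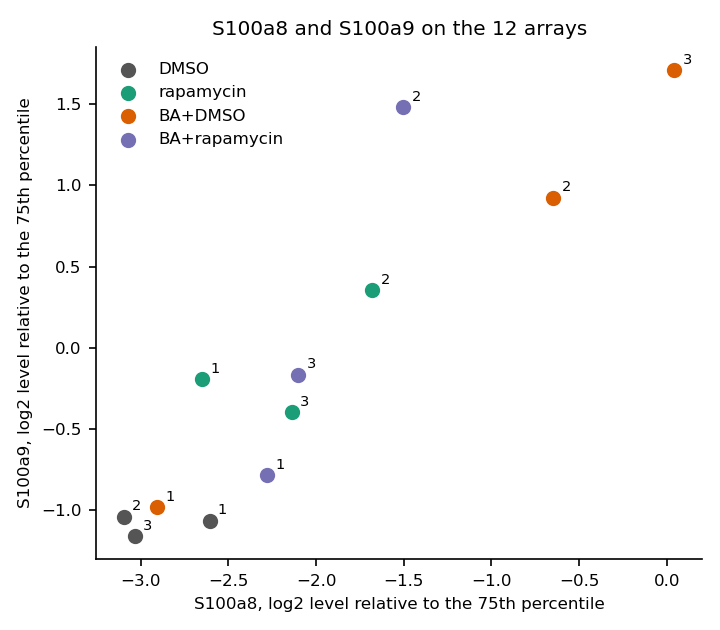
Level of S100a9 against S100a8 on the 12 arrays, both as log2 relative to the 75th percentile, with colours for the groups and the mouse number beside each point. BA+DMSO mouse 1 lies among the DMSO arrays, and BA+DMSO mouse 3 is the highest for both genes.

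The profiles of S100a8 and S100a9 over the 12 arrays resembled each other. After each profile was centred on its own mean, they lay 0.295 apart on average in log2, and each was the nearest of all tested genes to the other. The next profiles were farther away: for S100a8, a noncoding RNA probe on chromosome 5 at 0.426 and Fgf11 at 0.431, and for S100a9, Gm14635 at 0.492 and Hic1 at 0.496. Both genes were measured on the same arrays, so they share the scaling.

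Ly6g encodes the surface protein that antibodies use to mark mouse neutrophils, and it belongs to a family of closely similar Ly6 genes on the same chromosome. Its probe lies at chr15:74989023-74989082 (build mm9). This probe shares its last 28 bases, from base 33 to base 60, with the probe of another transcript of that chromosome, which the file names ENSMUST00000089689 and places at chr15:75066100-75066159. These letters, from 5′ to 3′, are shown because the array cannot tell the genes apart by them:

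shared by the Ly6g and ENSMUST00000089689 probes: ctgttgcaaggaagacctctgcaatgca

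The profile of ENSMUST00000089689 was also the nearest to Ly6g of all tested genes, with a mean distance of 0.125 in log2 over the 12 arrays. 9030619P08Rik, at 0.134, and Tmem176a, at 0.169, came next. How much of the Ly6g signal came from other Ly6 transcripts was not tested.

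Ly6g was at -0.38, -2.33 and -2.07 in DMSO, -1.20, -0.69 and -0.28 in rapamycin, 0.80, -0.66 and 0.71 in BA+DMSO, and -0.05, -0.35 and -0.14 in BA+rapamycin. DMSO mouse 1 stood well above the other DMSO mice and overlapped with BA+DMSO mouse 2. The rise from DMSO to BA+DMSO was 1.87 (SE 0.51, 3.66-fold, adjusted p = 0.0268) and was called. The call was lost without DMSO mouse 2 (1.5, adjusted p = 0.116), DMSO mouse 3 (1.64, adjusted p = 0.0915) or BA+DMSO mouse 1 (1.61, adjusted p = 0.0999). It was also lost with only the groups compared (adjusted p = 0.122) and with no filter on dim probes (adjusted p = 0.0501).

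With rapamycin, the challenge difference of Ly6g was 0.55 (SE 0.51, adjusted p = 0.402). The difference between both challenge effects was -1.33 (SE 0.72, adjusted p = 0.737). The rapamycin difference without challenge was 0.87 (SE 0.51, adjusted p = 1), and under challenge it was -0.46 (SE 0.51, adjusted p = 0.575). None of these 4 values passed the threshold. In the order of group means, DMSO was lowest, followed by rapamycin, BA+rapamycin and BA+DMSO, and each pair of neighbours overlapped. Before scaling, the mean Ly6g signal was 107.1 ± 93.8 (SD, n = 3) in DMSO and 227 ± 176 in BA+DMSO. It was 186 ± 84.2 in rapamycin and 87.6 ± 25.3 in BA+rapamycin, the opposite direction to the scaled values of that pair.

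Markers of macrophages and monocytes, cells that share the myeloid origin of neutrophils, moved with Ly6g. The summed level of 15 such markers, on a linear scale relative to the 75th percentile, was 114, 57.9 and 61.3 for the DMSO mice, 97.3 to 121 for rapamycin, 380, 188 and 273 for the BA+DMSO mice, and 261 to 275 for BA+rapamycin. DMSO mice 2 and 3 were the lowest arrays for Ly6g and for the markers alike, and mouse 2 was the lowest of BA+DMSO for both. This order was not particular to these markers. The median log2 level of 8 fibroblast markers had it too, at 6.13, 5.56 and 5.63 for the DMSO mice and 7.46, 6.27 and 6.71 for the BA+DMSO mice. By summed level of the fibroblast markers, BA+DMSO mouse 3 was instead the lowest of its group. S100a8 and S100a9 did not follow this order: BA+DMSO mouse 1 had the highest marker sum of all 12 arrays and the lowest S100a8 and S100a9 levels of its group. The part of macrophages and monocytes, or of any other cell type, in the Ly6g result was not tested.

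Csf3r encodes the receptor for granulocyte colony-stimulating factor, the hormone that drives the making and release of neutrophils. Its probe lies at chr4:125721478-125721537 (build mm9). This probe ends in a run of 30 bases that is also the end of the probe of TC1653005, an expressed sequence placed at chr4:145718198-145718257. In addition, 20 of these bases are in the probe of ENSMUST00000131716 on chromosome 1. The letters are shown because they resemble the start of B1, a short interspersed repeat that is present in many copies in mouse transcripts:

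shared by the Csf3r and TC1653005 probes: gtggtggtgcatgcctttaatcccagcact

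shared by the Csf3r and ENSMUST00000131716 probes: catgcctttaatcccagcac

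In all, 15 other probes on the array shared a run of 15 bases or more with the Csf3r probe on either strand, against 0 to 2 for the representative probe of each other gene. TC1653005 had the profile nearest to Csf3r, with a mean distance of 0.029 in log2, and ENSMUST00000131716 was second, at 0.052. Before scaling, the Csf3r signal lay between 36506 and 67387 on all 12 arrays, a range of 1.85-fold, while the 75th percentile of the arrays varied 4.52-fold. How much of this signal came from Csf3r was not tested.

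On the scaled values Csf3r was at 7.67, 7.72 and 8.0 in DMSO, 7.86, 7.91 and 7.64 in rapamycin, 8.29, 9.22 and 7.21 in BA+DMSO, and 8.97, 9.35 and 9.04 in BA+rapamycin. Every BA+rapamycin array was above every rapamycin array, whereas BA+DMSO spread from below every DMSO array to above all of them. No neighbours in the order of group means were separated. The challenge difference was 1.32 under rapamycin (SE 0.39, adjusted p = 0.0209), which was called, and 0.44 with vehicle (SE 0.39, adjusted p = 0.444). Without BA+DMSO mouse 3, the vehicle value was 0.96 and was called higher (adjusted p = 0.0174), and without mouse 2 it was -0.047 (adjusted p = 0.92). The call under rapamycin was lost with slide as a fixed block (1.34, adjusted p = 0.0508) and on the second slide alone (1.34, adjusted p = 0.103). It was lost when the arrays were normalized by quantiles (0.50, adjusted p = 0.192), and the value turned to -0.44 (adjusted p = 0.243) with array brightness as a covariate. With that covariate the vehicle value was -0.56 and was called lower (adjusted p = 0.0369). Under rapamycin, the call was lost also without rapamycin mouse 1 (1.34, adjusted p = 0.0508), rapamycin mouse 3 (1.24, adjusted p = 0.0708) or BA+rapamycin mouse 2 (1.20, adjusted p = 0.0677).

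The unscaled signals ran the other way. The mean signal of the Csf3r probe was 64074 ± 3929 (SD, n = 3) in rapamycin and 53319 ± 4185 in BA+rapamycin, and 56724 ± 467 in DMSO and 41493 ± 5061 in BA+DMSO. Thus the Csf3r difference had opposite directions with and without the scaling, in both pairs.

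**Figure D3:**
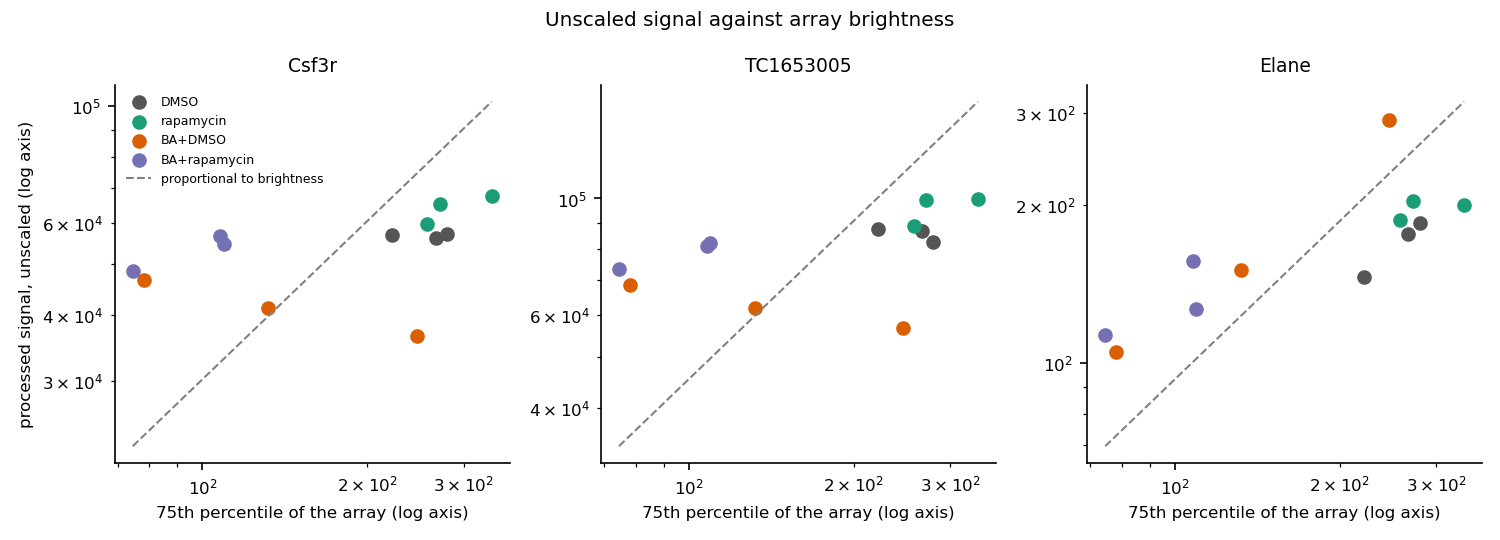
Unscaled processed signal of Csf3r, TC1653005 and Elane on each array against the 75th percentile of that array, on log axes, with colours for the groups. The dashed line is a signal proportional to array brightness. Csf3r and TC1653005 stay within a narrow range, 1.85-fold and 1.76-fold, over arrays whose brightness varies 4.52-fold.

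Among the azurophil granule genes, Elane rose and Mpo did not meet the background filter. Elane encodes neutrophil elastase, a protease that cuts elastin and other matrix proteins. Its probe lies at chr10:79350902-79350961 (build mm9), and it shared no run longer than 15 bases with another probe. The promoter of Elane is shown because the gene was called. It spans chr10:79886062-79886361 (GRCm38.p6, plus strand, RefSeq), from 250 bases before the start site to 50 after:

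Elane promoter: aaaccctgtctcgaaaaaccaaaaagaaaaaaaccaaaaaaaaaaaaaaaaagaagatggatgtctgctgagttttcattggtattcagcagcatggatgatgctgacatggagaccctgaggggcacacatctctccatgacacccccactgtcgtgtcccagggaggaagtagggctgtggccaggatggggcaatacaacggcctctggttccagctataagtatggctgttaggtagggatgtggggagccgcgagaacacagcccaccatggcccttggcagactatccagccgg

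Neither of the 2 motifs searched was in this window. They were TTGCNNAA, a site of C/EBP factors, which drive many granule genes, and TATAAA, the core of the TATA box, each read on both strands. Of 32851 promoter windows in the same table, 10.8% held the first and 13.6% the second. The absence says only that these letters are not in this window.

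Elane was at -0.60 on all 3 DMSO arrays, and at -0.46, -0.42 and -0.75 in rapamycin. It was at 0.19, 0.43 and 0.24 in BA+DMSO, and at 0.22, 0.60 and 0.54 in BA+rapamycin. All 6 challenged arrays were therefore above all 6 others, and within the challenged and the unchallenged arrays the groups overlapped. The share of all probes separated in this way was not counted. In the comparisons of 2 groups, 14.4% of all probes tested were higher on every array with vehicle and 29.8% under rapamycin. The rise was 0.89 with vehicle (SE 0.17, 1.85-fold, adjusted p = 0.00508) and 0.99 with rapamycin (SE 0.17, 1.99-fold, adjusted p = 0.00177). Both effects differed by 0.11 (SE 0.24, adjusted p = 0.878). The call with vehicle was lost when only DMSO and BA+DMSO entered the fit (adjusted p = 0.0579).

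On the second slide alone, the rise from rapamycin to BA+rapamycin was 1.04 (adjusted p = 0.0384). With array brightness as a covariate, it was 0.71 and no longer called (adjusted p = 0.105). Before scaling, the mean Elane signal was 169 ± 20.5 (SD, n = 3) in DMSO and 182 ± 96.7 in BA+DMSO, and 197 ± 8.34 in rapamycin and 132 ± 22.1 in BA+rapamycin. The unscaled Elane signals of DMSO and BA+DMSO differed by less than their spread, and those of BA+rapamycin were lower than those of rapamycin, so the rise is one relative to the 75th percentile. Over the 12 arrays, the profile of Slamf9 was nearest to Elane, with a mean distance of 0.075 in log2, followed by a noncoding RNA probe on chromosome 17, at 0.090, and Pacsin1, at 0.092.

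Mpo encodes myeloperoxidase, the most abundant azurophil enzyme, which makes hypochlorous acid. Its probes lie at chr11:87615121-87615180 and chr11:87617840-87617899 (build mm9). The first was not well above background on any array. The second passed on 1 array, BA+DMSO mouse 3, at a level of -3.64, and its signal was between 3.18 and 19.8 over all arrays. Prtn3, the gene next to Elane and the partner of elastase in the same granule, was not well above background on any array, and nor were Ctsg, Prss57 and Ms4a3.

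The specific granule genes split in the same way. Lcn2 rose, Camp was tested and not called, and Ngp and Ltf did not meet the background filter. Lcn2 encodes lipocalin 2, which withholds iron from bacteria by binding their siderophores. Its probe lies at chr2:32240199-32240258 (build mm9) and shared no run of 15 bases with any other probe. Its promoter is shown because Lcn2 had the strongest response of the 7 genes. It spans chr2:32387690-32387989 (GRCm38.p6, minus strand, RefSeq), and capitals mark the match to TTGCNNAA, which begins 216 bases before the start site:

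Lcn2 promoter: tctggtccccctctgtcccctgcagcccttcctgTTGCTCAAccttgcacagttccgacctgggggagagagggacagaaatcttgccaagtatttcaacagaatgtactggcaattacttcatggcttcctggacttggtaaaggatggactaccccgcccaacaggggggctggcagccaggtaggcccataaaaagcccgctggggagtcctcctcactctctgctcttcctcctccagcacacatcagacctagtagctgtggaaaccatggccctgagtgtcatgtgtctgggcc

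Ly6g has 2 start sites in the table, and the window of the first, chr15:75155011-75155310 (plus strand), holds both motifs, TTGCNNAA in its reverse form 232 bases before the start site and TATAAA 99 bases before it. The window of the second start site, which overlaps the first, holds TATAAA alone. It is shown for comparison, with the matches in capitals:

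Ly6g promoter, first start site: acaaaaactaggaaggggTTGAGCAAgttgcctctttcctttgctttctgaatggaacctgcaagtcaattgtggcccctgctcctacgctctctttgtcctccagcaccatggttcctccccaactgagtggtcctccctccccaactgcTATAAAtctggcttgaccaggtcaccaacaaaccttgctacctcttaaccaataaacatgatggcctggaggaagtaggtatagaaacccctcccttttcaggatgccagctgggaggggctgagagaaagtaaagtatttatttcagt

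Lcn2 was at -1.67, -2.34 and -1.69 in DMSO and -1.86, -1.97 and -1.44 in rapamycin. It was at 0.77, 0.59 and 0.71 in BA+DMSO and 1.55, 0.41 and 1.20 in BA+rapamycin. No challenged array came near the others: the lowest challenged array was 1.85 above the highest unchallenged one. As for Elane, the share of all probes with such a separation was not counted. BA+DMSO and BA+rapamycin overlapped. The rise was 2.59 with vehicle (SE 0.29, 6.02-fold, adjusted p = 0.00048) and 2.81 with rapamycin (SE 0.29, 7.02-fold, adjusted p = 0.000174). Before scaling the signal was also higher, at 249 ± 144 (SD, n = 3) in BA+DMSO against 69.9 ± 17.7 in DMSO, and 222 ± 112 in BA+rapamycin against 88.2 ± 31.4 in rapamycin.

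Lcn2 was the only one of the 7 genes that passed the threshold that the study's methods give, a p under 0.01, taken here as unadjusted, and a change over 4-fold. That threshold was passed by 2.51% of all probes with vehicle and by 5.14% with rapamycin. On the second slide alone, where rapamycin mice 2 and 3 and all BA+rapamycin mice lay, the rise was 2.76 (adjusted p = 0.0085).  Under challenge, BA+rapamycin differed from BA+DMSO by 0.36 (SE 0.29, adjusted p = 0.444). The tested genes with the profiles nearest to Lcn2 were Fxyd5, at 0.241, a noncoding RNA probe on chromosome 5, at 0.247, and Kng1, at 0.251.

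Camp encodes cathelicidin, an antimicrobial peptide. Its 2 probes overlap, at chr9:109749911-109749970 and chr9:109749901-109749950 (build mm9), so they are not independent. The first was at -1.87, -2.71 and -2.28 in DMSO, -1.64, -2.02 and -2.18 in rapamycin, -1.78, -1.72 and -1.62 in BA+DMSO, and -3.13, -0.62 and -2.64 in BA+rapamycin. BA+DMSO lay above DMSO on every array but by little, and BA+rapamycin, with 2 of 3 arrays well above background, spread widely around the others. The challenge difference was 0.58 with vehicle (SE 0.51, adjusted p = 0.448) and -0.18 with rapamycin (SE 0.51, adjusted p = 0.792). Without BA+rapamycin mouse 2, the difference with rapamycin was -0.93 and was called lower (adjusted p = 0.0332). The second probe gave 0.17 (SE 0.39) and 0.01 (SE 0.39).

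Ngp encodes neutrophilic granule protein, a relative of the cathelicidins, and Ltf encodes lactoferrin, an iron-binding protein. The Ngp probe is placed at chr9:110324266-110324814, a span longer than its 60 bases, and the Ltf probe at chr9:110942873-110942932 (build mm9). Ngp was not well above background on any of the 12 arrays, with signals between 3.80 and 15.7. Ltf passed on BA+DMSO mouse 3 alone, at a level of -3.41 and a signal of 23.1. The same mouse carried the single Mpo detection and the highest S100a8 and S100a9 levels, and its array had the highest 75th percentile of the challenged arrays.

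**Figure D4:**
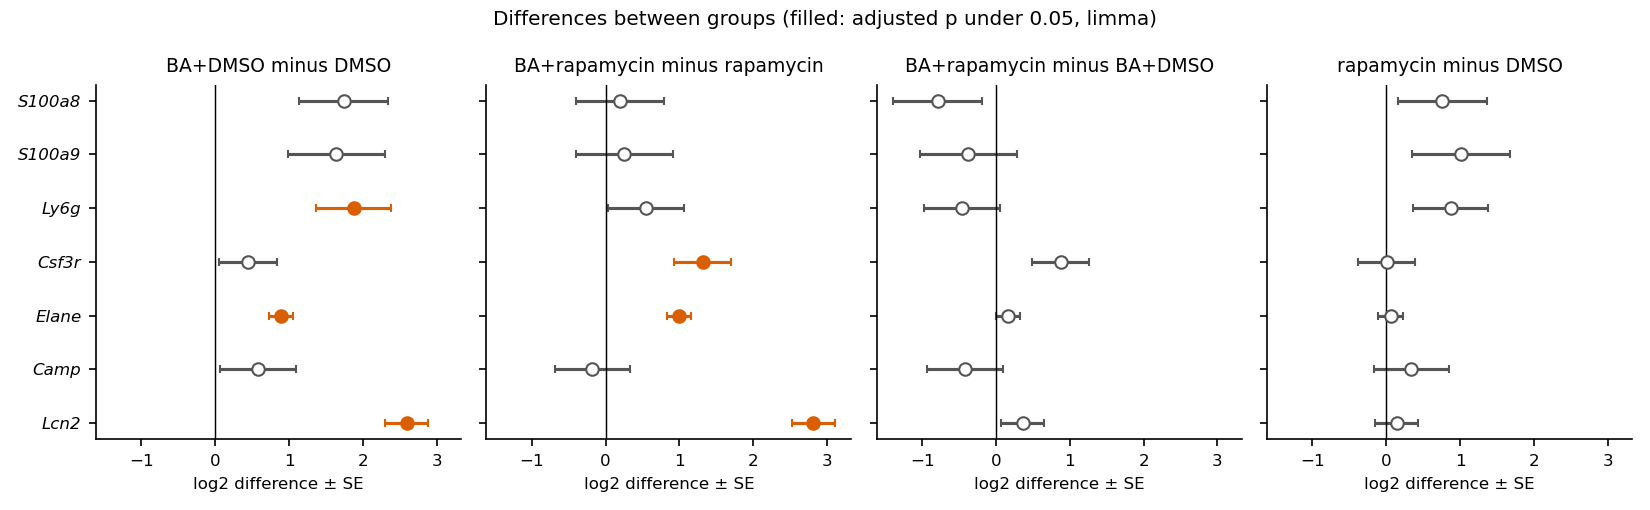
Log2 difference ± SE (limma, n = 3 per group) of the 7 tested genes in 4 comparisons. Filled points have an adjusted p under 0.05. Lcn2 has the highest point in both challenge comparisons, at 2.59 and 2.81, with error bars that overlap those of Ly6g and S100a8 in the comparison with vehicle, and no gene is filled in either rapamycin comparison.

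In the challenge comparison under rapamycin, Elane, Lcn2 and Csf3r made 3 of the 7 genes called, all higher. All 3 were also higher on every array. The background was high: 41.7% of all probes tested were called, 18.9% higher and 22.9% lower, and 29.8% were higher on every array. The median over the 7 genes was 0.55, against -0.08 over all probes tested.

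Rapamycin under challenge changed 0 of the 7 genes at an adjusted p under 0.05 by limma, where 0.281% of all probes were called. At an unadjusted p under 0.05, Csf3r alone passed (0.88, SE 0.39), against 20.1% of all probes. Rapamycin without challenge, a comparison that shares the DMSO arrays with the challenge with vehicle, also changed 0 of the 7, against 0.0036% of all probes. None of the 7 had an unadjusted p under 0.05 there, against 4.27% of all probes. The difference between both challenge effects was called for 0 of the 7 genes and 0% of all probes, and passed an unadjusted p under 0.05 for none of the 7 and for 6.12% of all probes. These tests could miss smaller changes, since the SE was between 0.17 and 0.66 for each comparison of 2 groups.

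Other genes of the neutrophil were read from 6 lists, with 75 genes on the array. Of these, 27 were well above background on all 12 arrays, 24 on some and 24 on none. Among the last were several genes known for neutrophils or their precursors: Prtn3, Ctsg, Ms4a3, Mmp8, Cd177, Olfm4, Itgb2l, Stfa1, Cxcr2, Cebpe and Gfi1. Retnlg, a late neutrophil gene, passed on 1 array.

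The counts of called genes with vehicle in these lists stand beside 9.65% of all probes called higher and 10.8% lower. DMSO and BA+DMSO lay on different slides. With slide as a fixed block, 15 of the 27801 probes tested were called with vehicle (0.054%), so the calls of these lists cannot all hold there. Of the genes tested in these lists, Chi3l3, Hdc, Clec4d, Fpr1 and Il6 met the background filter only through challenged groups. The filter favoured their calls, so they are no support for the counts that include them, which are also given without them in both comparisons, as are the medians with vehicle. Azurophil granule genes had 3 of 8 tested. Lyz2 (2.40, adjusted p = 0.0268) and Serpinb1a (1.94) rose with vehicle and 0 fell, with a median of 1.94, against -0.04 over all probes tested. Lyz2 encodes lysozyme, which macrophages also make. Specific and gelatinase granule genes had 5 of 12 tested, and all 5 were called higher, with a median of 2.26. Without Chi3l3, 4 of 4 were, with a median of 1.96. They were Hp (2.87), Adam8 (2.26), Cybb (1.66) and Cyba (0.58), and Chi3l3, whose fitted difference of 3.47 rests on a baseline that was mostly not above background. Cybb and Cyba form the membrane part of the NADPH oxidase, which makes superoxide in neutrophils and macrophages alike. Chi3l3 was well above background on 1 of 3 DMSO arrays as well as on all BA+DMSO arrays.

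Cystatins and other late genes had 9 of 16 tested, with 4 higher, 1 lower and a median of 1.81. Without Hdc, 3 of 8 were higher and the median was 1.24. Lrg1 (2.61), Ifitm6 (2.47) and Alox5ap (2.24), which serves leukotriene synthesis, rose. Hdc, which makes histamine, had a fitted difference of 3.04 and was well above background on 1 of 3 DMSO arrays. Mxd1 fell by 1.58. Among surface receptors 11 of 17 were tested, with 8 higher, 0 lower and a median of 2.26. Without Fpr1 and Clec4d, 6 of 9 were higher and the median was 2.18. The named receptors were Clec4d (3.66), which was well above background on 1 of 3 DMSO arrays, Fpr1, the receptor for formylated bacterial peptides, C5ar1 (2.69), the receptor for complement C5a, and Fcgr3 (2.42), an Fc receptor. Fpr1 was not well above background on any DMSO array and was at least 5.32-fold higher in BA+DMSO.

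The transcription factor list had 5 of 7 tested, with 2 higher, 0 lower and a median of 0.51. Runx1 (2.01) and Cebpa (1.88) rose. Growth factors and chemoattractants had 6 of 15 tested, with 3 higher, 0 lower and a median of 1.27. Without Il6, 2 of 5 were higher and the median was 1.13. Il6 was not well above background on any DMSO array, was so on 2 of 3 BA+DMSO arrays, and was at least 13.0-fold higher in the mean of all 3. The BA+DMSO levels were 2.84, -3.83 and -0.12, and the bound was 4.25-fold without mouse 1 and 43.0-fold without mouse 2, values computed after the data were seen. Cxcl1 (1.62), a ligand that draws neutrophils, and Selp (1.41), which catches them on endothelium, also rose. With Fpr1 and Il6 kept in and set at their bounds, the medians of their lists were 2.26 and 1.27. Csf3, Cxcl2, Cxcl3 and Il17a were not well above background on any array.

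Under rapamycin the same 6 lists had 1 of 3, 4 of 5, 4 of 9, 8 of 11, 2 of 5 and 2 of 6 genes called higher with the challenge, and Mxd1 was the only one called lower. Without Chi3l3, Hdc, Clec4d, Fpr1 and Il6, the counts were 3 of 4 specific and gelatinase granule genes, 3 of 8 late genes, 6 of 9 receptors and 1 of 5 growth factors and chemoattractants, and the other lists hold none of these genes. Over all probes tested, 18.9% were called higher in this comparison and 22.9% lower. Rapamycin under challenge changed 0 genes of any of these lists (limma, adjusted p under 0.05), against 0.281% of all probes.

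**Figure D5:**
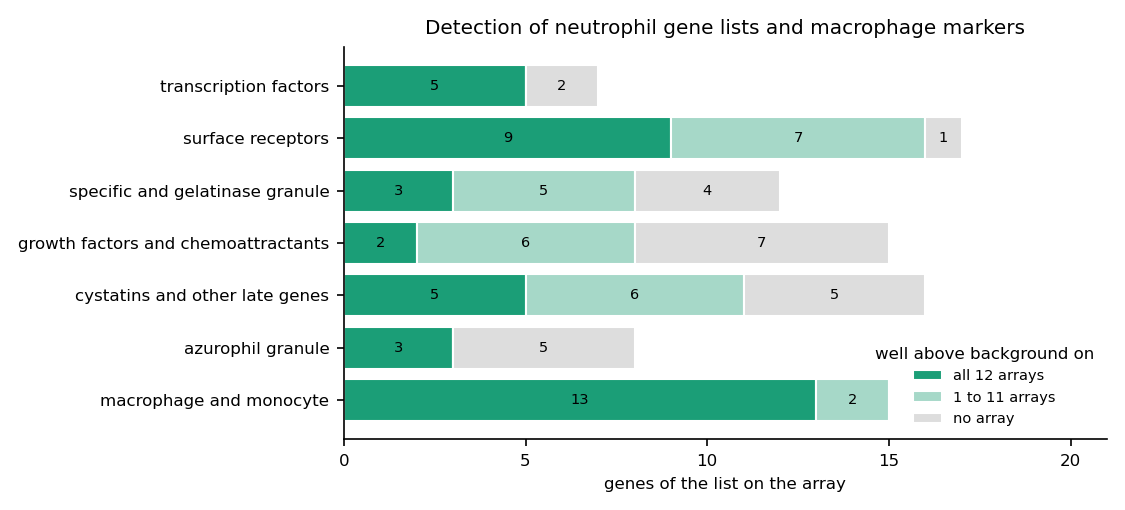
Number of genes in each neutrophil list, and in the list of macrophage and monocyte markers, by how many of the 12 arrays measured them well above background. The 10 neutrophil genes described above are not in these lists. No gene of the azurophil list lies between the extremes, with 3 genes on all arrays and 5 on none, whereas 13 of 15 macrophage and monocyte markers were measured on all 12 arrays.

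Many of the genes that rose are shared with macrophages, and markers of other cells rose too. All 15 macrophage and monocyte markers tested were called higher with vehicle (median 2.23), among them Csf1r, the receptor that macrophages depend on, and Ly6c1. Of these 15, 13 were well above background on all 12 arrays. With slide as a fixed block, 15 of the 27801 probes tested were called with vehicle. The calls of these markers and of the lists that follow therefore cannot all hold there. All 5 erythroid genes tested rose, with a median of 1.92, and their summed level was 19.2 to 90.0 for DMSO, 86.2 to 202 for rapamycin, 123 to 255 for BA+DMSO and 328 to 378 for BA+rapamycin. They included Hba-a1 and Hbb-b1, which encode the globins. Platelet genes had 1 of 6 called higher (Pf4), lymphocyte genes 2 of 7 (Cd3e and Cd4), and genes of eosinophils, basophils and mast cells 0 of 3, where 9.65% of all probes tested were called higher. Their medians with vehicle were 1.45, 0.38 and 0.98. The platelet median was 1.03 without Gp9 and Itga2b, which met the background filter only through challenged groups.

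Of the tissue lists, smooth muscle had 0 of 8 higher and 1 lower (Lmod1), endothelium 3 of 8 higher (Emcn, Kdr and Tie1), fibroblast 2 of 8 higher (Col1a1 and Col3a1) and adipocyte 1 of 7 higher (Ucp1, the uncoupling protein of brown fat, which met the background filter only through BA+DMSO). These counts stand beside 9.65% of all probes called higher and 10.8% lower. The medians with vehicle were -0.58 for smooth muscle, 0.53 for endothelium, 0.71 for fibroblast and 1.42 for adipocyte genes. The adipocyte median was 1.36 without Ucp1. The part of macrophages, of blood in the sample or of any other cell type in the rise of Lcn2, Elane and Ly6g was not tested. Of the 6 granule genes among the 10, Elane and Lcn2 were well above background on all 12 arrays and Camp on 11, whereas Mpo and Ltf were so on 1 and Ngp on none.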

How the data were processed

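RNA from 12 aortas was hybridised to Agilent 1-colour arrays with Cy3. The authors scanned the arrays and deposited the probe intensities of Agilent Feature Extraction, version 9.5.1.1 per the labels and 10.7.1.1 per the file headers. The processed intensity used here is background-subtracted and spatially corrected by that software and is not normalized between arrays. The flag for a signal well above background was used as deposited. A deposited value table of the same arrays matched quantile-normalized processed signals, with a correlation of at least 0.9999, and was used as an alternative.

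Control spots and outlier flags were left out, spots of a probe were averaged, and log2 signals were centred on the 75th percentile of each array. Probes well above background in at least 0.5 of their spots counted as detected. Groups were taken from the treatment labels. The series has separate mice, numbered here in accession order. A model with 4 groups was fitted to the 27801 tested probes in limma 3.58.1 (R 4.3.3) with empirical Bayes variances, and p-values were adjusted over all probes by the Benjamini-Hochberg method. The script was tested on simulated data. With 3 arrays per group, precision is limited by their number.

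Where a gene had 2 probes, the one with the higher mean level stands for it. The 10 genes, the 6 neutrophil lists and the lists of other cell types were chosen with earlier results of these data known. From each neutrophil list, up to 4 called genes with the largest difference were named. Cyba, Mxd1, the called genes of short marker counts and genes that failed the filter were chosen for mention after their values were seen. Profile likeness is the mean absolute difference of centred log2 levels over the 12 arrays, and the nearest 3 genes were named. Lower bounds for genes not detected in DMSO used the dimmest detected signal of each array. Promoters came from RefSeq (GRCm38.p6), where all 10 genes matched by symbol, and probe positions are those of the array files (mm9). Alternatives were other scalings and background corrections, no filter, slide, date or array brightness in the model, array weights, only the groups compared, the study's threshold, the other probe of Camp and each array left out.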

Additional observations from a re-analysis of the deposited data

Results flagged for a closer look

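Mpo and Ltf were not well above background on any DMSO array, but each was so on a single challenged array, that of BA+DMSO mouse 3. The Mpo level there was -3.64 and the Ltf level was -3.41, as log2 relative to the 75th percentile. Both genes lay outside the tests. Before scaling, the signals of both genes were the highest of the 12 arrays there, at 19.8 for Mpo and 23.1 for Ltf. Some scaled levels were higher on arrays with a lower 75th percentile. Mpo was at -2.21 and -3.19 on BA+rapamycin arrays 2 and 1 and at -3.36 on BA+DMSO array 1. Ltf was at -3.04 on BA+rapamycin array 2. None of these readings was well above background, so they cannot be ranked against the detected ones. The array of BA+DMSO mouse 3 had the highest 75th percentile of the challenged arrays. On the same array Retnlg, a late neutrophil gene, was also well above background.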

How the results depend on the processing

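No paired analysis was possible because the replicate numbers were given in accession order and pair no mice across groups. Slide and the date in the titles were used as blocks instead. Some dates were shared across groups, but BA+DMSO mouse 1, the only dated array of its group, shared none with DMSO. Date as a random block had a consensus correlation of 0.50. With it, 3 of the 7 genes were called with vehicle and 3 under rapamycin, beside 19.1% and 40% of all probes. BA+DMSO mice 2 and 3 have no date in their titles, and each was a block of its own. Called genes among the 7 for the challenge with vehicle, 3 by the reported fit, were 0 with slide as a fixed block (Lcn2, 2.44, adjusted p = 0.171), 5 with slide as a random block, 1 with only the groups compared and 1 at the study's threshold, both times Lcn2, where 0.054%, 36.9%, 4.47% and 2.51% of all probes were called, against 20.5%. Under rapamycin they were 5 of all 10 genes without a filter, when Mpo and Ngp entered the test and were called and 53.3% of all probes were called too, and 1, Lcn2, with brightness as a covariate or at the study's threshold (6.42% and 5.14% of all probes, against 41.7%). Rapamycin under challenge went from 0 to 1, Csf3r, with array weights, where 25.5% of all probes were called. With each array left out in turn, this count and that of the difference between both challenge effects ranged from 0 to 1, where 1 was Csf3r without BA+DMSO mouse 2 (1.37, adjusted p = 0.00676, and 1.36, adjusted p = 0.0486), beside 39.9% and 11% of all probes.

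Of 882 values of single genes under alternatives, 816 kept direction and side of the threshold, 17 lost the call, 10 gained it and 39 changed sign. Of the sign changes, 2 also crossed the threshold, both of Csf3r with brightness as a covariate. Calls were also gained with vehicle by S100a8 with normexp (1.21), by S100a8 and S100a9 with slide as a random block (1.88 and 1.67, at a consensus correlation of -0.13, against 1.00, adjusted p = 0.756, and 1.47, adjusted p = 0.688, with slide as a fixed block) and by Csf3r without BA+DMSO mouse 3 (0.96), and Camp was called lower under rapamycin without BA+rapamycin mouse 2 (-0.93). For the challenge with vehicle, Csf3r was the only gene whose sign changed. With quantile normalization, signs turned for Csf3r with vehicle (-0.12), S100a8 under rapamycin (-0.11) and Csf3r with rapamycin alone (-0.091), and the deposited value table gave -0.11, -0.11 and -0.089. Camp under rapamycin turned to 0.0049 with the percentile over detected probes, 0.44 with normexp and 0.0071 with its other probe, and Camp for rapamycin under challenge turned to 0.064 with normexp and 0.029 with the other probe. S100a8 under rapamycin was -0.052 with slide as a fixed block or on the second slide alone. Csf3r with rapamycin alone was -0.0071 with slide and -0.034 with date as a random block, and Ly6g under rapamycin was -0.074 with date. With brightness as a covariate, Csf3r was -0.56 with vehicle and -0.44 under rapamycin, Ly6g for rapamycin under challenge 0.0094, and the difference between both effects of Elane -0.016. With array weights, rapamycin under challenge gave 0.46 for S100a8 and 0.58 for S100a9.

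With each array left out, signs turned within these ranges. For the challenge with vehicle, Csf3r -0.047 to 0.96. For the challenge under rapamycin, S100a8 -0.052 to 0.43, S100a9 -0.40 to 0.74 and Camp -0.93 to 0.32. For rapamycin under challenge, S100a9 -1.14 to 0.21 and Camp -1.17 to 0.081. For rapamycin alone, Elane -0.0025 to 0.17, Lcn2 -0.079 to 0.26 and Csf3r -0.059 to 0.11. For the difference between both effects, Lcn2 -0.026 to 0.54. The cause was not tested. Without a filter, the median of all probes moved by 0.48 with vehicle, 0.93 under rapamycin, 0.37 for rapamycin under challenge and 0.37 for the difference between both effects, and this is the setting in which Mpo and Ngp were called. The percentile over detected probes moved the median of all probes by 0.18 under rapamycin, and normexp moved it by 0.14 with vehicle and 0.22 under rapamycin. The dim signals of Mpo, Ngp and Ltf limit what can be said of them.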
